A study of Mus musculus with 12 samples.

Results

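The Hippo pathway was followed through 10 genes, chosen by name among the 27754 genes of the table. These were the transcriptional coactivators *Yap1* and *Wwtr1* (TAZ), the DNA-binding partners *Tead1* and *Tead2*, the kinases *Lats1* and *Lats2*, and the target genes *Cyr61* (CCN1), *Ctgf* (CCN2), *Ankrd1* and *Amotl2*. All 10 had an entry, and 9 reached a mean of 10 normalized counts and were tested. *Ankrd1* was not, with 0 to 2 normalized counts in every library.

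On GRCm38 the CCN targets are short genes, *Cyr61* (ENSMUSG00000028195) at chr3:145646976-145649981 on the minus strand and *Ctgf* (ENSMUSG00000019997) at chr10:24595442-24598683 on the plus strand, and the 2 other targets are *Ankrd1* at chr19:36111961-36120099 (minus) and *Amotl2* at chr9:102716672-102733418 (plus). The coactivator genes are *Yap1* at chr9:7931999-8004596 (minus) and *Wwtr1* at chr3:57455649-57575910 (minus). *Tead1* lies at chr7:112679318-112906807 (plus) and *Tead2* at chr7:45215753-45233644 (plus), and the kinase genes are *Lats1* at chr10:7681214-7716460 (plus) and *Lats2* at chr14:57689662-57758388 (minus). Values are per gene, over the exons. Exons of *Yap1* share 116 bases with the antisense gene *Gm20416* (mean of 0.6 normalized counts) and those of *Tead2* 13 bases with *Cd37* (29.5).

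RNA was taken from the cochlear sensory epithelium of newborn mice on a mixed C57BL/6 and CD1 background, freed from the underlying tissue with Cell Recovery Solution, and each library came from the 2 ears of 1 pup. Treated pups were Sox2-CreER/+; β-catenin-flox(Exon3)/+, in which tamoxifen removes exon 3 of 1 β-catenin allele and so stabilizes the protein in SOX2+ cells, which are mainly supporting cells at these ages. Untreated pups carried β-catenin-flox(Exon3)/+ without Cre and were exposed to tamoxifen as well. Tamoxifen was given to the mother on postnatal day 1 (P1 groups) or day 4 (P4 groups), and tissue was harvested 72 h later, on day 4 or day 7. The table held 3 P1 untreated, 3 P1 treated, 3 P4 untreated and 2 P4 treated libraries (replicates 1 and 3). Replicate 2 of the P4 treated group was not analysed here. The paper left out 1 sample because exon 3 was not removed from its *Ctnnb1* transcripts. The main text does not name that sample. The RNA was bulk RNA of hair cells, supporting cells and whatever other tissue came along, so recombined cells were only some of those sampled. Each library summed to between 41.2 and 44.2 M normalized counts. The reads behind these sums were not counted here. Because the values are bulk, fewer cells of a type and less RNA per cell cannot be told apart in any result given here.

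In the Hippo pathway, a cascade of kinases ends in LATS1 and LATS2, which phosphorylate YAP and TAZ and keep them out of the nucleus. When the cascade is quiet, YAP and TAZ enter the nucleus, bind TEAD factors and switch on targets such as the secreted matricellular proteins CYR61 and CTGF and the junctional protein AMOTL2, which in turn holds YAP back. In the inner ear the pathway is known for its part in limiting growth of the sensory epithelium, and the CCN genes respond also to serum, stretch and handling of tissue. YAP and TAZ are controlled mainly through phosphorylation, which RNA levels do not measure.

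TEAD factors recognize the sequence GGAATG or its complement CATTCC. RefSeq promoter windows on GRCm38.p6 were found for 8 of the 10 genes (10 promoters), and *Ctgf* and *Tead1* had no entry in the table used. Searched on both strands over the 250 bases before the RefSeq start site, the motif was found for 5 of the 8 genes, namely *Cyr61*, *Amotl2*, *Ankrd1*, *Yap1* and *Wwtr1*, and was held by 12.6% of all 32851 promoters. For *Amotl2* and *Ankrd1* this start site lies inside the gene span given above, and so do their motifs. The whole window of *Cyr61* is shown because that gene had the largest change with age among those tested here. It lies at chr3:145649986-145650235 on the minus strand, upstream of the first exon, and capitals mark the TEAD motif, here on the opposite strand, which ends 98 bases before the start site.
Cyr61 promoter: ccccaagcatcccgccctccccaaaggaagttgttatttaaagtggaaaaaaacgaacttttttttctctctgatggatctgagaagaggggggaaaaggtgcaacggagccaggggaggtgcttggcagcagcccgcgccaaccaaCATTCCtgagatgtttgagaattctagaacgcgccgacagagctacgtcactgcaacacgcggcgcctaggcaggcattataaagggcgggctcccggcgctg
For the other targets with a motif and for the coactivators, 30 bases around each motif are shown, again with the motif in capitals. These are chr9:102717727-102717756 on the plus strand for *Amotl2*, chr19:36120037-36120066 and chr19:36119950-36119979 on the minus strand for *Ankrd1*, chr3:57576029-57576058 on the minus strand for *Wwtr1* and chr9:8004720-8004749 on the minus strand for *Yap1*.
Amotl2 site: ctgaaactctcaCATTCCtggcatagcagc
Ankrd1 distal site: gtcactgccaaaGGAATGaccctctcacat
Ankrd1 proximal site: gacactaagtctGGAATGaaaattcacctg
Wwtr1 site: ggtaaactcaaaGGAATGcagataggcgct
Yap1 site: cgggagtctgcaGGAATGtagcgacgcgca

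The TCF/LEF motif CTTTGA, through which β-catenin acts on DNA, was found in the windows of *Wwtr1* and *Amotl2*, 2 of the 8 genes, and in 13.8% of all promoters. The AP-1 motif TGANTCA was in 0 of the 8 windows and in 6.75% of all promoters, and the CArG box of SRF in 0 of the 8 and in 1.47%. A match of letters describes the sequence only, and other windows, such as distal enhancers, were not searched.

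With age, 3 of the 4 target genes fell. In untreated libraries, *Cyr61*, *Ctgf* and *Amotl2* fell between the P1 and P4 groups by factors of 6.31, 4.36 and 2.82, while *Tead1* rose 2.99-fold. These 4 of the 9 genes tested passed the test (limma on log2 values, Benjamini-Hochberg adjusted p under 0.05 over all 18400 genes tested and a log2 difference beyond 0.32 either way), against 19.9% of all genes. The 3 that fell stand beside 10.5% of all genes called lower, and the 1 that rose beside 9.38% called higher. For 8 of the 9 the untreated P1 and P4 libraries did not overlap, the exception being *Lats1*, and this was so for 41.3% of all genes. The median log2 change of the 9 was -0.40 and that of all genes -0.02.

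*Cyr61*, which encodes a secreted protein that binds integrins and is switched on within minutes by growth factors, had 11652, 17270 and 19109 normalized counts in the P1 untreated libraries and 3200, 1876 and 2543 in the P4 untreated ones. Every P1 library was thus far above every P4 library, with means of 16010 ± 3880 (SD, n = 3) and 2540 ± 662 (SD, n = 3). The log2 difference was -2.66 (SE 0.296, 95% interval -3.32 to -2.0, limma adjusted p = 0.000378).

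*Ctgf*, a related secreted protein known for its part in matrix deposition, had 8894, 9020 and 9685 normalized counts at P1 and 2105, 1556 and 2861 at P4. The P1 untreated libraries lay close together, at 9200 ± 425 (SD, n = 3), and those at P4 lower, at 2174 ± 655 (SD, n = 3). The difference was -2.12 on the log2 scale (SE 0.329, interval -2.85 to -1.40, limma adjusted p = 0.00181). The *Ctgf* exons share 665 bases with the antisense gene *Gm15270*, which had a mean of 170 normalized counts. Use of strand is not stated, so reads of both genes may be mixed in that stretch.

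*Amotl2*, an angiomotin family member that binds YAP at cell junctions, had 4229, 2178 and 3962 normalized counts in P1 untreated libraries and 1291, 894 and 1409 in P4 untreated ones. The groups did not overlap, but P1 untreated replicate 2 lay well under the other two. The log2 difference was -1.50 (SE 0.364, interval -2.30 to -0.69, limma adjusted p = 0.0162). The call was lost without P1 untreated replicate 1 (-1.32, adjusted p = 0.0589), without P1 untreated replicate 3 (-1.37, adjusted p = 0.0599) and without P4 untreated replicate 2 (-1.30, adjusted p = 0.0539).

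*Ankrd1*, an ankyrin repeat protein of heart and skeletal muscle and a common YAP reporter gene elsewhere, had 0 to 2 normalized counts in the P1 libraries and 0 or 1 in the P4 libraries. It was near 0 in every library and could not be compared. Its window held 2 TEAD motifs.

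**Figure D1:**
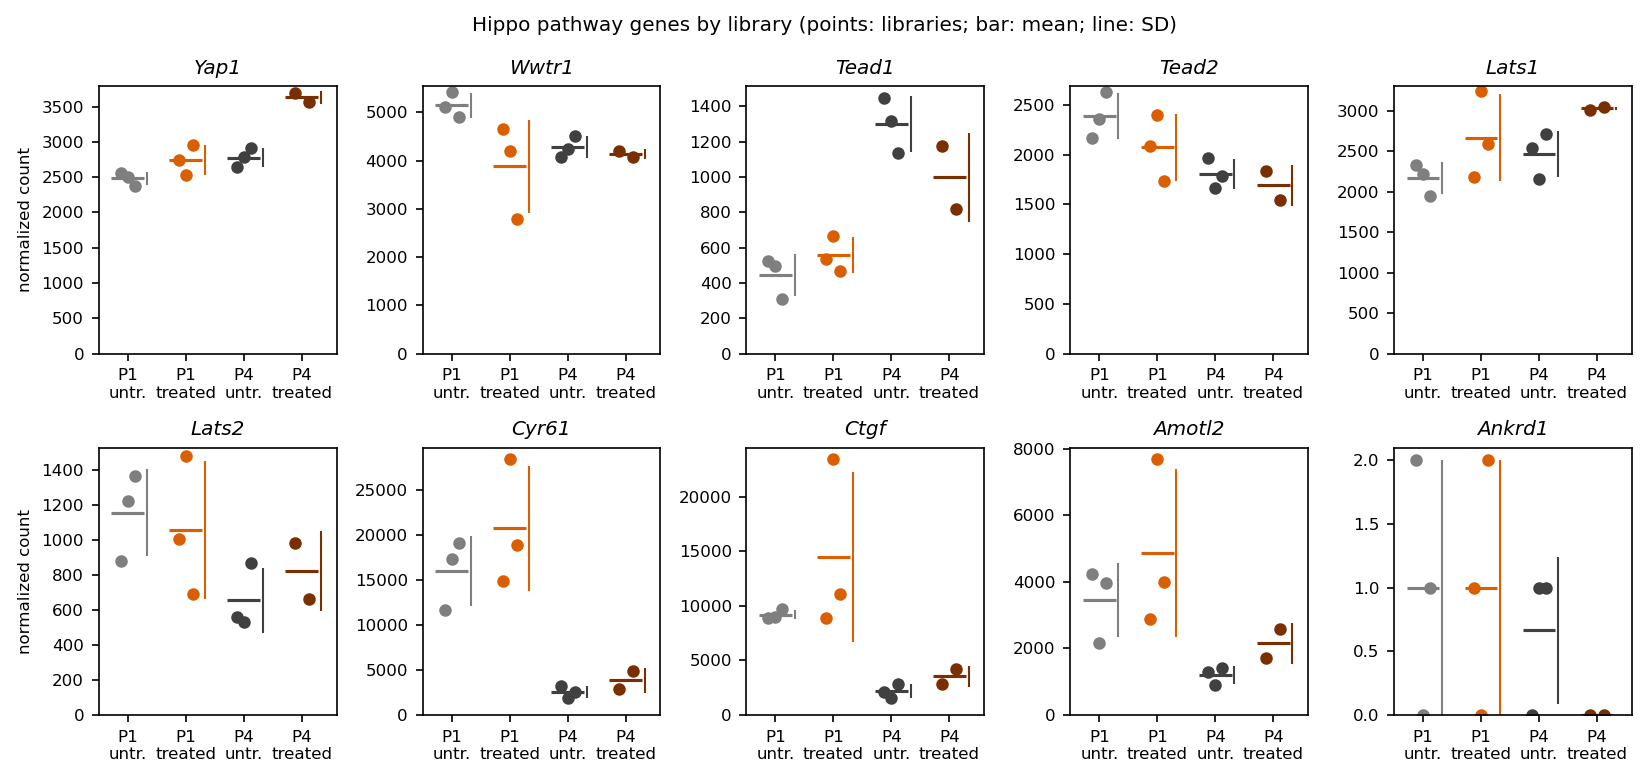
Normalized counts (linear axes) of the 10 genes, 1 point per library, by group. The means of *Cyr61*, *Ctgf* and *Amotl2* are lower in both P4 groups than in both P1 groups and that of *Tead1* is higher, while the treated and untreated points of 1 age mostly overlap.

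In treated libraries the age difference had the same direction for these genes. *Cyr61*, *Ctgf* and *Yap1* passed the test, 3 of 9 against 11.1% of all genes. The 2 that fell stand beside 5.63% of all genes called lower and the 1 that rose beside 5.42% called higher. The groups did not overlap for 5 of the 9 (*Yap1*, *Tead1*, *Cyr61*, *Ctgf* and *Amotl2*), against 43.1% of all genes, and the median log2 change was -0.29 beside 0 over all genes.

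*Cyr61* had 14846, 28360 and 18895 normalized counts in P1 treated libraries and 2842 and 4842 in P4 treated ones. Replicate 2 was the highest at P1, and no P4 library came near any P1 library. The log2 difference was -2.43 (SE 0.331, interval -3.16 to -1.69, limma adjusted p = 0.00311), a 5.38-fold lower level.

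*Ctgf* had 8904, 23415 and 11102 normalized counts in P1 treated libraries and 2824 and 4240 in P4 treated ones. Replicate 2 again stood above the other two at P1. The difference was -1.93 on the log2 scale (SE 0.367, interval -2.75 to -1.12, limma adjusted p = 0.0104), and without P4 treated replicate 1 it was -1.64 with an adjusted p of 0.0948.

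*Amotl2* showed the same order, with 2889, 7696 and 3990 normalized counts at P1 and 1720 and 2578 at P4. It did not pass the test (log2 difference -1.08, SE 0.407, interval -1.99 to -0.18, limma adjusted p = 0.117). The treated comparison rests on 2 P4 libraries. The number of members called was 1 without P4 treated replicate 1 and 1 when only the groups compared were fitted.

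The sexes were spread unevenly over the groups, as read from *Xist*. *Xist*, the RNA of the inactive X chromosome, was at 13 to 26 normalized counts in each P1 treated library and at 3268 and 4180 in the P4 treated pair. In untreated libraries it was 16, 3030 and 2794 at P1 and 32 to 39 at P4. Sex therefore cannot be told apart from age in treated libraries or from treatment at P4, where it splits with the groups, and it is partly mixed with treatment at P1 and with age in untreated libraries. With log2 *Xist* as a covariate, 0 of the 9 members were called between treated libraries, with *Cyr61* at -2.95 and an adjusted p of 0.0943, *Ctgf* at -1.86 and 0.263 and *Yap1* at an adjusted p of 0.256. Between untreated libraries *Cyr61*, *Ctgf*, *Amotl2* and *Tead1* were still called with this covariate. Within a group, *Xist* differed widely only among the P1 untreated libraries. The covariate therefore rests mainly on those libraries and cannot settle the part of sex.

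**Figure D2:**
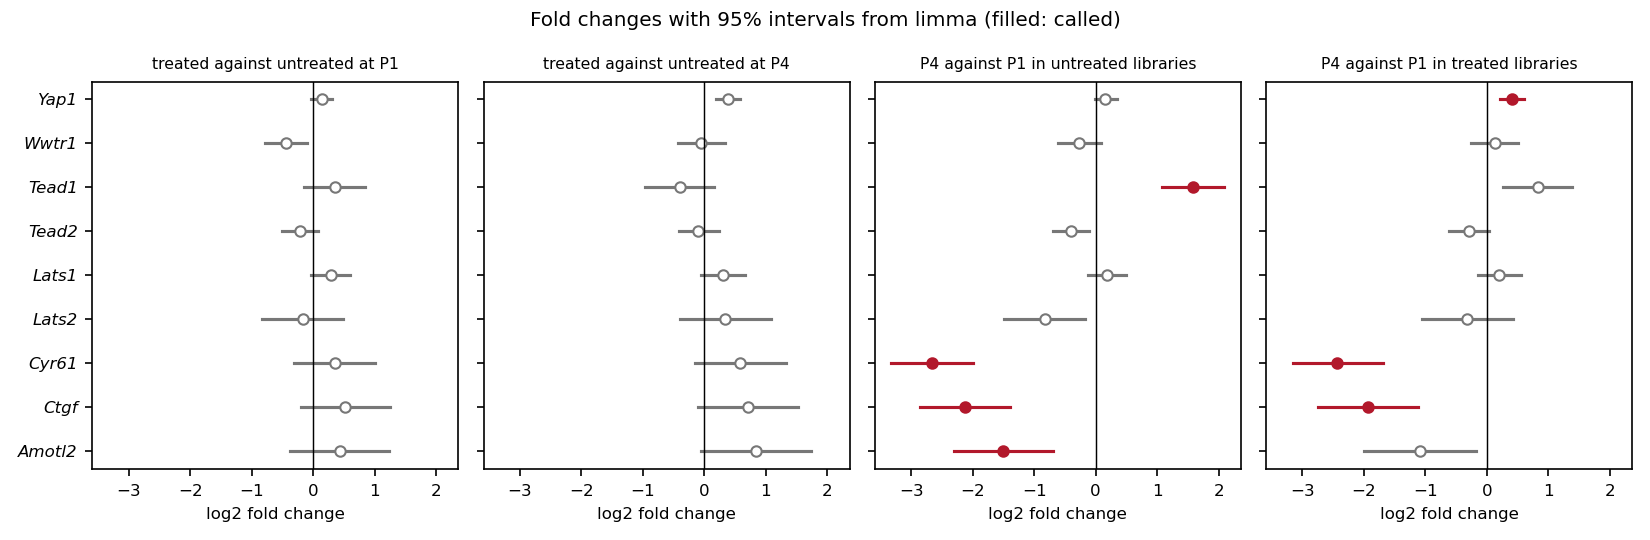
Log2 differences of the 9 genes tested in 4 comparisons, with points for the limma estimates and bars for 95% intervals, and filled points for genes called. With age, *Cyr61*, *Ctgf* and *Amotl2* lie below 0 in untreated and treated libraries, and with treatment no gene was called at either age.

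Of the DNA-binding partners, *Tead1* rose with age in untreated libraries, and *Tead2* did not pass the test. *Tead1* had 527, 497 and 308 normalized counts in P1 untreated libraries and 1450, 1317 and 1137 in P4 untreated ones. All P4 values were above all P1 values, and the log2 difference was 1.58 (SE 0.227, interval 1.08 to 2.09, limma adjusted p = 0.00126). In treated libraries *Tead1* had 537, 668 and 467 at P1 and 1176 and 819 at P4. Those groups did not overlap either, but the log2 difference of 0.83 (SE 0.254, interval 0.27 to 1.39) did not pass the test, at a limma adjusted p of 0.0613. It passed without P1 treated replicate 2 (0.97, adjusted p = 0.0497) and without P1 untreated replicate 3 (0.83, adjusted p = 0.0323).

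*Tead2* had 2169, 2364 and 2634 normalized counts in P1 untreated libraries and 1965, 1669 and 1789 in P4 untreated ones. The P4 values were all below the P1 values, but the log2 difference of -0.40 (SE 0.132) did not pass the test (limma adjusted p = 0.0539). It passed when only the groups compared were fitted (adjusted p = 0.0356), and also without P1 treated replicate 2 (0.0342) and without P1 treated replicate 3 (0.0326).

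Levels of different genes were compared per kilobase of merged exons. Merged exons may be longer than the transcripts present, so orders and shares hold on this scale only. On this scale *Tead2* was the most abundant of the 4 TEAD genes in every group, at 499 normalized counts per kb in P1 untreated and 378 in P4 untreated libraries. *Tead3* followed in both P1 groups, at 93.6 in P1 untreated libraries. It also did so in P4 treated libraries, at 91.6 beside 73.5 for *Tead1* (SDs of 15.8 and 18.6, n = 2). *Tead4* was lowest throughout, at 6.67 to 14.5. *Tead1* moved from 32.7 per kb in P1 untreated to 95.9 in P4 untreated libraries, where *Tead3* stood at 64.4. As a share of the summed TEAD levels per kb, *Tead1* made up 5.19% ± 1.59 (SD, n = 3) in P1 untreated and 17.6% ± 1.97 (SD, n = 3) in P4 untreated libraries. The share of *Tead1* in treated libraries was 7.23% ± 0.281 (SD, n = 3) at P1 and 13.8% ± 1.60 (SD, n = 2) at P4. *Tead2* kept the main share in all groups, from 78.3% ± 4.87 (SD, n = 3) in P1 untreated to 67.2% ± 1.14 (SD, n = 2) in P4 treated libraries.

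The coactivators did not pass the test between untreated libraries. *Wwtr1* had 5116, 5417 and 4908 normalized counts in P1 untreated libraries and 4070, 4244 and 4516 in P4 untreated ones. All of its P4 values were below the P1 values, with a log2 difference of -0.27 (SE 0.155, limma adjusted p = 0.246). *Yap1* had 2562, 2507 and 2376 in P1 untreated libraries and 2638, 2787 and 2907 in P4 untreated ones, a log2 difference of 0.16 (SE 0.0782, limma adjusted p = 0.167).

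In treated libraries *Yap1* rose from 2745, 2525 and 2952 at P1 to 3699 and 3570 at P4. The log2 difference was 0.41 (SE 0.0874, interval 0.22 to 0.60, limma adjusted p = 0.0167), a 1.33-fold change. This call was lost without P4 treated replicate 1 (adjusted p = 0.116), without P4 treated replicate 3 (0.0976) and when only the groups compared were fitted (0.0794). Per kb of exon *Wwtr1* exceeded *Yap1* in each group, and *Yap1* made up 19.9% ± 0.632 (SD, n = 3) of the sum of both in P1 untreated and 25.1% ± 0.192 (SD, n = 3) in P4 untreated libraries. In treated libraries the share of *Yap1* was 27.5% ± 6.81 (SD, n = 3) at P1 and 31.2% ± 0.0343 (SD, n = 2) at P4.

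The kinases did not pass the test with age. *Lats1* had 2337, 2219 and 1947 normalized counts in P1 untreated libraries and 2538, 2156 and 2712 in P4 untreated ones, and the groups overlapped. *Lats2* had 881, 1220 and 1364 at P1 and 558, 533 and 870 at P4. Its P4 values were all below the P1 values, narrowly so, with a log2 difference of -0.83 (SE 0.297, limma adjusted p = 0.0715). *Lats2* passed when only the groups compared were fitted (adjusted p = 0.0457), without P1 treated replicate 2 (0.0442) and without P1 treated replicate 3 (0.046). The *Lats2* exons share 2955 bases with *Gm49361* on the same strand, which had no row of its own in the table. In treated libraries *Lats2* was 1004, 1476 and 692 at P1 and 984 and 661 at P4, and *Lats1* was 2178, 3245 and 2587 at P1 and 3019 and 3046 at P4, with overlap for both. *Lats1* held 64.3% ± 7.04 (SD, n = 3) of the summed LATS level per kb in P1 untreated and 78.5% ± 3.31 (SD, n = 3) in P4 untreated libraries.

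**Figure D3:**
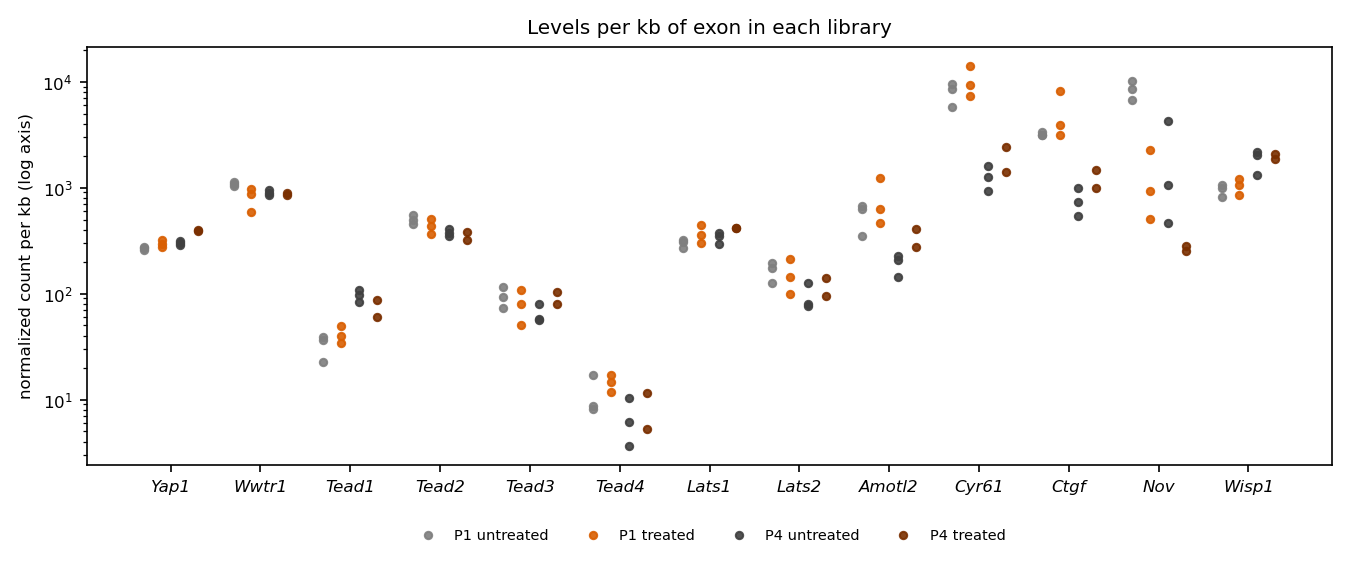
Normalized counts per kb of merged exons (log axis) for the Hippo genes, the other TEAD genes and the other CCN genes, 1 point per library by group. *Cyr61* has the highest mean of the members in each of the 4 groups, and *Wwtr1* lies above *Yap1* and *Tead2* above the other TEAD genes.

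Per kb of exon *Cyr61* was the most abundant member in all groups, at 7930 ± 1920 normalized counts per kb (SD, n = 3) in P1 untreated and 1260 ± 328 (SD, n = 3) in P4 untreated libraries. In the P4 untreated libraries *Wwtr1*, at 895 ± 47.0 (SD, n = 3), and *Ctgf*, at 760 ± 229 (SD, n = 3), differed by less than the spread of *Ctgf*. *Tead2*, *Lats1* and *Yap1* came next there, at 378, 338 and 300 per kb, with SDs of 31.1, 39.0 and 14.6, and *Lats1* and *Yap1* differed by less than the spread of *Lats1*. *Amotl2*, at 190, followed, and *Tead1* at 95.9 and *Lats2* at 93.8 stood side by side. Within the pair of CCN targets, *Cyr61* made up 70.6% ± 4.84 (SD, n = 3) of the sum per kb in P1 untreated and 62.4% ± 6.30 (SD, n = 3) in P4 untreated libraries, a difference of the size of the spread.

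With stabilization of β-catenin, no member passed the test at either age. Few genes of any kind were called with treatment here, fewer than the paper reports from DESeq2 at either age. A missing call therefore does not show that treatment left a gene unchanged. For mice given tamoxifen on day 1, 0 of 9 were called with limma, against 0.353% of all genes. An unadjusted p under 0.05 was found for 1 of the 9 and for 2241 of the 18400 genes. The groups did not overlap for 1 of 9, against 15.3% of all genes. That gene was *Wwtr1*, with 4649, 4199 and 2791 normalized counts in treated and 5116, 5417 and 4908 in untreated libraries. Its log2 difference was -0.44 (interval -0.78 to -0.10, limma adjusted p = 0.287). P1 treated replicate 3 was the lowest, and without it the difference was -0.22.

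The targets were not called at P1, and the intervals were wide. The log2 difference between treated and untreated libraries was 0.35 for *Cyr61* (interval -0.31 to 1.01), 0.52 for *Ctgf* (SE 0.329, with 0 inside the interval) and 0.43 for *Amotl2* (interval -0.38 to 1.23). Treated replicate 2 was the highest of the 6 P1 libraries for all 3 genes. Without it the differences were 0.10 for *Cyr61*, 0.11 for *Ctgf* and 0.03 for *Amotl2*. The other members had P1 differences of 0.14 for *Yap1* (interval -0.03 to 0.31), 0.35 for *Tead1* (interval -0.15 to 0.85), -0.21 for *Tead2* (interval -0.50 to 0.08), 0.29 for *Lats1* (interval -0.03 to 0.60) and -0.17 for *Lats2* (interval -0.83 to 0.49).

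For mice given tamoxifen on day 4, 0 of 9 were called with limma, against 0.0543% of all genes. An unadjusted p under 0.05 was found for 1 of the 9 and for 2141 of the 18400 genes. The member was *Yap1*, at 3699 and 3570 normalized counts in treated and 2638, 2787 and 2907 in untreated libraries, without overlap. Its log2 difference of 0.39 (SE 0.0874, interval 0.19 to 0.58) ranked 91 among the 18400 genes by p but had a limma adjusted p of 0.23, and treated and untreated libraries differ in sex here. The groups did not overlap for 3 of 9, *Yap1*, *Lats1* and *Amotl2*, against 33.5% of all genes.

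Intervals at P4 were wide for the targets too. *Cyr61* differed by 0.58 (interval -0.15 to 1.32), *Ctgf* by 0.71 (interval -0.10 to 1.53) and *Amotl2* by 0.84 (interval -0.06 to 1.74). All 3 estimates were above 0, as at P1, and none passed the test. Without P4 treated replicate 3 they were 0.20 for *Cyr61*, 0.42 for *Ctgf* and 0.55 for *Amotl2*. The median log2 difference of the 9 genes was 0.29 at P1 and 0.34 at P4, beside 0 over all genes in both cases. The other members differed by -0.05 for *Wwtr1*, -0.40 for *Tead1*, -0.10 for *Tead2*, 0.30 for *Lats1* and 0.34 for *Lats2*.

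No member passed the test for a difference of the treatment effect between the ages. For this difference 0 of 9 genes were called with limma, against 0% of all genes, and 0 of the 9 had an unadjusted p under 0.05, as 1067 of all genes did. The largest difference among them was that of *Tead1*, -0.75 (SE 0.341, interval -1.51 to 0.01, limma adjusted p = 0.856). *Cyr61* had 0.23 (interval -0.76 to 1.22), *Ctgf* 0.19 (interval -0.90 to 1.28) and *Amotl2* 0.41 (interval -0.80 to 1.62). The same values state how far the age effect differed between treated and untreated libraries.

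*Lgr5*, a Wnt target and progenitor marker, checked the labels. It had 8880, 8822 and 9331 normalized counts in P1 treated and 2715, 2727 and 2041 in P1 untreated libraries (log2 difference 1.86, SE 0.143, limma adjusted p = 0.00087), and 7306 and 6352 against 3103, 2763 and 3934 at P4 (1.08, adjusted p = 0.0697). *Ctnnb1* itself differed by 0.16 at P1 and 0.13 at P4, which is no check, because deletion of 1 exon need not change the total. *Sox2*, whose promoter drives the Cre, fell in P1 treated libraries (-0.67, adjusted p = 0.03) and stood at -0.41 at P4 (adjusted p = 0.272). The paper names lowered *Sox2* in knock-in alleles such as Sox2-CreER as a limitation. Untreated pups lacked this allele, so its effect and that of β-catenin cannot be told apart in any treatment comparison here. *Axin2*, another Wnt target, differed by -0.40 at P1 (limma adjusted p = 0.591) and by -0.03 at P4 (adjusted p = 0.978). Treatment estimates of the wider list of Wnt targets, given below, went both ways, so *Lgr5* does not stand for that list.

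The upstream regulators and cofactors of the pathway were counted from a list of 27 genes, of which *Vgll1* and *Vgll2* had no row and were not analysed here. Of 25 tested, 4 rose, 3 fell and 18 did not pass between untreated P1 and P4 libraries, with a median log2 change of -0.04. *Vgll4*, which competes with YAP for TEAD, rose from 3288, 4022 and 3724 to 7001, 7746 and 8644 normalized counts (log2 difference 1.08, SE 0.102, limma adjusted p = 0.000159). The P4 untreated values were all above the P1 ones. *Wtip* and *Ajuba*, of the LIM protein family that binds LATS kinases, fell (log2 differences -0.69, adjusted p = 0.000766, and -0.61, adjusted p = 0.00952), as did *Mob1a*, a LATS activator (-0.70, adjusted p = 0.00455). Between treated libraries 4 rose, 1 fell and 20 did not pass, and *Vgll4* (0.69, adjusted p = 0.00612) and *Wtip* (-0.74, adjusted p = 0.003) were called in the same directions. *Amot*, an angiomotin that binds YAP as *Amotl2* does, rose between treated libraries by 0.77 (adjusted p = 0.0109). With treatment none of the 25 was called, and the medians were -0.01 at P1 and 0.08 at P4. At P4, 9 of them had an unadjusted p under 0.05, as 2141 of all 18400 genes did, among them *Mob1a* at 0.79 (adjusted p = 0.169) and *Vgll4* at -0.50 (adjusted p = 0.239).

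Other genes known as YAP and TAZ targets did not share 1 direction with age. Of 17 tested, 4 rose, 4 fell and 9 did not pass between untreated libraries (median log2 change -0.29), and 3 rose, 2 fell and 12 did not pass between treated ones (median -0.07). *Dock5*, a guanine nucleotide exchange factor, rose by 1.72 (adjusted p = 0.00112) and 1.93 (adjusted p = 0.00332) in the 2 comparisons. *Fjx1*, a kinase of the Golgi, fell in both (-1.58, adjusted p = 0.00487, and -2.09, adjusted p = 0.00511). The receptor kinase *Axl* fell (-0.76, adjusted p = 0.0013) and *Gadd45a*, a stress response gene, rose by 0.99 (adjusted p = 0.00158) between untreated libraries. None was called with treatment, with medians of 0.09 at P1 and 0.15 at P4.

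Of the 4 other CCN genes, paralogs of *Cyr61* and *Ctgf*, 1 rose, 2 fell and 1 did not pass between untreated libraries. *Wisp1* (CCN4) was higher at P4 in untreated (0.92, SE 0.196, limma adjusted p = 0.00897) and treated libraries (0.94, adjusted p = 0.0239). *Nov* (CCN3) fell between untreated libraries (log2 difference -2.71, SE 0.704, limma adjusted p = 0.0214), although P4 untreated replicate 2, at 12084 normalized counts, stood far above replicates 1 and 3, at 1336 and 3018. Treated libraries had 6433, 2659 and 1462 normalized counts of *Nov* at P1, where untreated libraries had 19207, 24527 and 28939. Those groups did not overlap, but the log2 difference of -3.03 (interval -4.59 to -1.47) had a limma adjusted p of 0.126. At P4 treated libraries had 799 and 726 (log2 difference from untreated -2.26, adjusted p = 0.328). *Wisp2* (CCN5) was low, at 4 to 34 normalized counts, and fell between untreated libraries (-1.67, adjusted p = 0.0328). *Wisp3* (CCN6), at 3 to 32, was not called.

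Immediate early genes, which respond within minutes to growth factors and to handling of tissue, moved with the targets. Of 17 tested, 14 fell and 0 rose between untreated libraries (median log2 change -1.92), and 13 fell and 0 rose between treated ones (median -1.85). Their summed normalized counts were 161570 to 258855 in P1 untreated, 141850 to 319910 in P1 treated, 45665 to 73957 in P4 untreated and 48640 to 57108 in P4 treated libraries. The summed *Cyr61*, *Ctgf* and *Amotl2* counts were 24775 to 32756, 26639 to 59471, 4326 to 6813 and 7386 to 11660 in the same order. P1 treated replicate 2 was highest in both sums. With treatment the medians of the immediate early genes were -0.14 at P1 and -0.25 at P4, where those of the targets were above 0. Their part in the age difference of the targets was not tested.

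**Figure D4:**
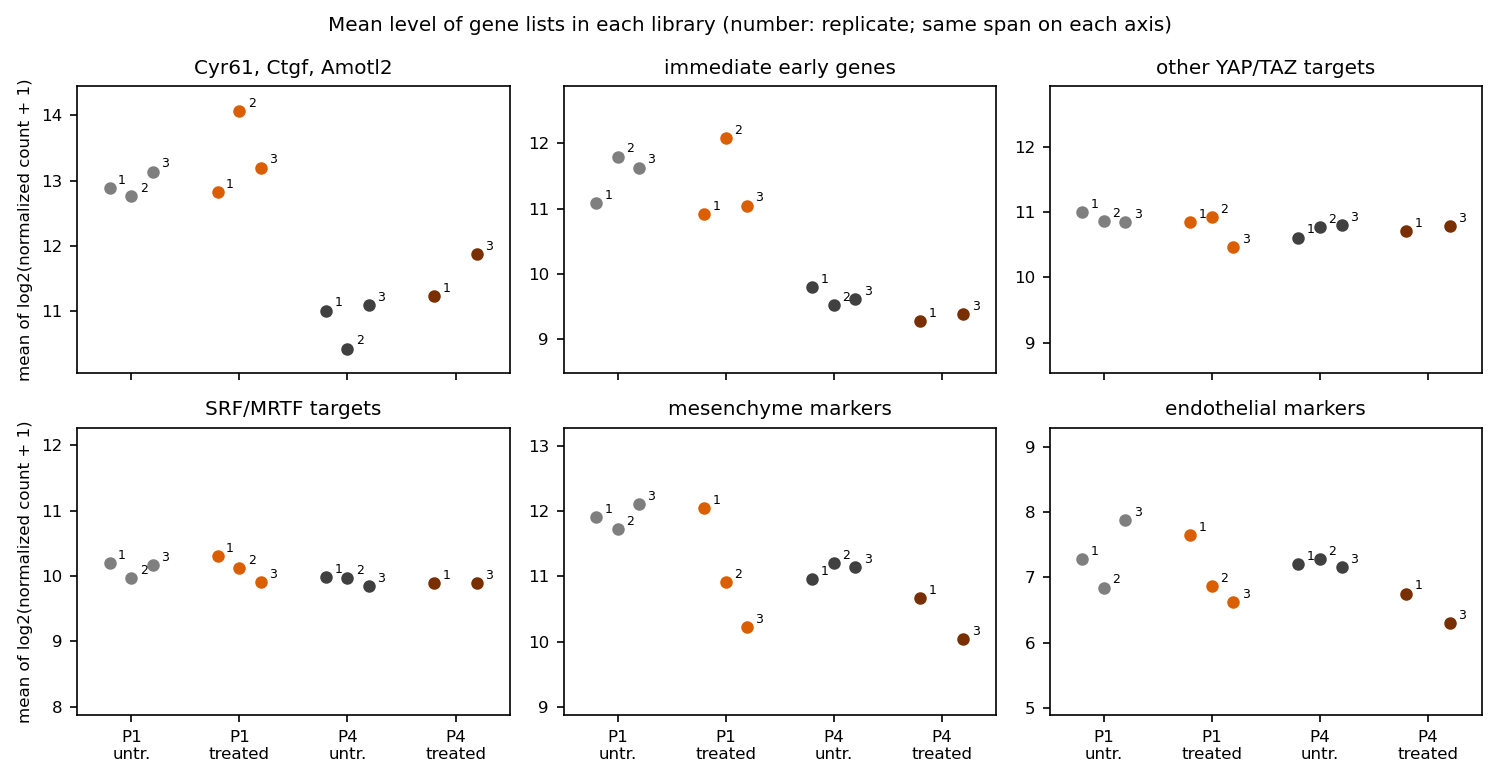
Mean log2(normalized count + 1) per library of the 3 target genes, the immediate early genes and marker lists, by group. Targets and immediate early genes both lie lower in the P4 than in the P1 libraries, and P1 treated replicate 2 is highest in both.

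Genes with the most similar course over the 11 libraries were sought among 14934 genes with a mean of at least 50, by the root mean square difference of centred log2 values. For *Cyr61*, whose own values varied by 1.36 on this measure, they were the nuclear IκB protein *Nfkbiz* (0.347) and the immediate early factors *Fos* (0.376) and *Egr1* (0.411). *Fos* was 28970, 50305 and 42479 in P1 untreated and 10790, 3751 and 3795 in P4 untreated libraries. *Ctgf* (own variation 1.16) was nearest to *Adgrg2* (0.357), *Papss2* (0.357) and *Nfkbiz* (0.377). *Amotl2* (own variation 0.867) was nearest to *Sema3c* (0.275), *Gm2670* (0.306) and *Alcam* (0.318). Among the members, *Ctgf* and *Cyr61* differed by 0.361 and *Amotl2* and *Ctgf* by 0.434. The libraries share age and group, so these distances describe the course and carry no test.

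Markers of other cell types were measured in the same libraries. Of 12 mesenchyme markers, 1 rose and 3 fell between untreated libraries (median log2 change -1.08), and 0 rose and 1 fell between treated ones (median -0.69), but their summed counts were 145653 to 168863 in P1 untreated and 187322 to 206573 in P4 untreated libraries. With treatment at P1 only *Lum* was called, and it rose (0.75, limma adjusted p = 0.0364). The other estimates above 0 there were *Col1a1* (0.31), *Dcn* (0.14) and *Ogn* (0.07). The rest of the list lay below 0, from -0.64 for *Postn* to -2.17 for *Prrx1*, without a call. The mean log2(normalized count + 1) of the list was 11.91, 11.72 and 12.11 in P1 untreated libraries. It was 12.04, 10.91 and 10.22 in P1 treated libraries, replicate 3 being the lowest. At P4 it was 10.95, 11.20 and 11.14 in untreated and 10.66 and 10.04 in treated libraries. Of 11 endothelial and pericyte markers none was called with age, and their sums were 9121 to 11970 in P1 untreated, 3593 to 6610 in P1 treated, 4171 to 7773 in P4 untreated and 2856 to 3454 in P4 treated libraries. Hair cell markers summed to 27177 to 44989 in P1 untreated and 53507 to 62361 in P4 untreated libraries. Of these 12, 5 rose (*Ocm*, *Slc26a5*, *Slc17a8*, *Tmc1* and *Otof*) and 1 fell (*Atoh1*). The rest (*Myo7a*, *Pou4f3*, *Gfi1*, *Myo6*, *Espn* and *Lhfpl5*) were not called, at 0.06 to 0.39, so the list did not move as 1. Supporting cell markers summed to 82680 to 112842 in P1 untreated and 133478 to 146735 in P4 untreated libraries, and 7 of 12 rose and 1 fell. No marker of these lists was at 0 in every library, which was so for the immune and muscle lists too and does not single out a cell type. The part of these shifts in the levels of the Hippo genes was not tested.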

How the data were processed

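Total RNA from the 2 cochlear sensory epithelia of single pups was amplified with the SMARTer V4 kit, made into libraries with ThruPLEX and sequenced from 1 end. Per the study's methods, the authors mapped reads to mm10 with STAR 2.5.2b, used featureCounts for quality control and Sailfish for transcript levels, which tximport collapsed to gene counts, and tested genes with DESeq2. The deposited values are a score per gene. They are whole numbers, deposited as normalized counts, and the study's methods do not describe how they were scaled or rounded. The table does not name the counts that were scaled. Use of strand is not stated in the sources read here. Of 27755 rows, 1 repeated ID was dropped, and 626 rows had no symbol. Tools for raw counts were not applied to scaled values.

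Values were taken as log2(normalized count + 1) and fitted in R 4.3.3 with limma 3.58.1, as 4 group means in 1 fit with a trend of the spread (eBayes). The 18400 genes with a mean of at least 10 were tested, and p-values were adjusted by Benjamini and Hochberg over all of them. Calls needed an adjusted p under 0.05 and a log2 difference beyond 0.32. Age differences are P4 minus P1. Fold changes on this scale understate those of low genes. The script was tested on simulated data. Replicates are single pups, and the comparisons share libraries. Same-numbered P1 and P4 untreated libraries deviated together (correlation of residuals 0.115 to 0.136), and in the other comparisons this correlation was -0.061 to 0.026. The labels do not say that a number marks a litter or day, so the main fit treated no libraries as pairs. Gene positions, exon lengths and overlaps came from GENCODE on GRCm38, and promoter sequences from RefSeq on GRCm38.p6. Motif searches covered 250 bases.

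Members and gene lists were chosen with earlier results of these data known. Named were all members, the 3 genes most like each target, genes that check the model and up to 4 called genes of each list per comparison with the smallest adjusted p. The 4 other CCN genes and 2 regulators at P4 were added after their values were seen. Alternatives were other pseudocounts, minimum levels, scalings, thresholds and fits, library weights, a replicate block, log2 *Xist* as a covariate and leaving out each library.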

Additional observations from a re-analysis of the deposited data

How the results depend on the processing

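Between untreated libraries, 4 members were called, and 3 to 6 when each library was left out in turn. Between treated libraries 3 were called, and 1 when only the groups compared were fitted, 0 with log2 *Xist* as a covariate and 1 to 4 when each library was left out. With treatment, and for its difference between ages, 0 were called under every alternative. With the replicate number as a block, the calls numbered 4 between untreated libraries and 3 between treated ones, where *Yap1* was lost (0.39, adjusted p = 0.0518) and *Tead1* gained (0.91, adjusted p = 0.0195). Between untreated libraries the block changed no member's call. Over all alternatives the log2 change of *Cyr61* between untreated libraries was -2.87 to -2.39, that of *Ctgf* -2.34 to -1.90, of *Amotl2* -1.85 to -1.30 and of *Tead1* 1.34 to 1.72. Directions reversed only for values that were not called. With log2 *Xist* the difference of the treatment effect between ages was -0.56 for *Cyr61*, -0.26 for *Lats2* and -0.15 for *Tead2*, and the treatment effect on *Lats2* was 0.15 at P1 and -0.12 at P4. With quantile normalization the difference between ages for *Lats1* was -0.03. Leaving out each library, it was -0.10 to 0.60 for *Ctgf*, -0.15 to 0.61 for *Cyr61*, -0.12 to 0.17 for *Lats1* and -0.01 to 0.24 for *Tead2*. The treatment effect was then -0.45 to 0.10 for *Lats2* at P1 and -0.22 to 0.03 for *Tead2* at P4, and the age effect on *Wwtr1* in treated libraries -0.09 to 0.27. The causes were not tested. Over all genes, calls between untreated libraries numbered 3659 and with log2 *Xist* 1807, and between treated ones 2034 and then 28, with 888 when only the groups compared were fitted, 1326 with the block and 356 to 2072 when each library was left out. With treatment 65 were called at P1 and 7 to 371 under the alternatives, 10 at P4 and 2 to 22, and 0 for the difference between ages and up to 14. Having only 2 P4 treated libraries limits precision.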

Other observations

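Lists measured beside the Hippo genes gave these counts. Of 11 tested genes controlled by SRF and its MRTF cofactors, which answer actin tension as YAP does, 1 rose and 2 fell between untreated libraries (median log2 change -0.21), with *Vcl* at 0.72, *Myl9* at -1.15 and *Tpm1* at -0.73, and 1 rose and 1 fell between treated ones (median -0.19). Of 12 Wnt target genes, *Lgr5* and *Sp5* were called higher with treatment at P1 (*Sp5* 1.79, limma adjusted p = 0.0469), and none was called at P4. Treatment estimates in this list went both ways. They ran from -1.64 for *Notum* to 2.07 for *Dkk1* at P1, and from -2.89 for *Notum* to 1.08 for *Lgr5* at P4. With age, 4 fell and 0 rose in untreated (median -0.78) and in treated libraries (median -1.26). Striated muscle markers summed to 1470 to 1768 normalized counts in P1 untreated, 435 to 1115 in P1 treated, 384 to 945 in P4 untreated and 255 to 338 in P4 treated libraries. None of 10 immune markers was called in any comparison, with a median of -1.12 for treatment at P1. Neuron and glia markers had 2 of 10 higher (*Tubb3* at 2.2 and *Gata3* at 1.3) and 0 lower between untreated libraries. *Nefl*, *Nefm* and *Snap25* were not called there (-0.53, -0.98 and 0.11). Stria and melanocyte markers had 2 of 9 higher and 1 lower.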
